A study of Homo sapiens with 2 samples.

Results

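The genes described here are the type I and type II keratins, taken as every protein-coding row whose symbol is KRT followed by a number and, in some members, a letter A to C. This rule used only names. It gave 55 genes, 29 of type I and 26 of type II, among 17409 protein-coding symbols and 21382 symbols of any type in the table. All 55 were matched by Ensembl identifier to the GENCODE 29 annotation of GRCh38, and 18 of them had the same start and end there as in the deposited table. Keratin-associated protein genes and keratin pseudogenes were left out of the set.

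Keratins are the intermediate filament proteins of epithelial cells. Type I keratins are acidic and type II keratins are basic to neutral, and a filament forms only when a type I chain pairs with a type II chain. Each kind of epithelium uses its own pairs, so keratins are widely used to tell epithelial layers apart. In the prostate gland, luminal secretory cells carry the simple-epithelial pair KRT8 and KRT18, and the basal cells beneath them carry KRT5, KRT14 and KRT15. KRT6, KRT16 and KRT17 chains are known from wounded or hyperproliferative epidermis and from hair follicles, and a large set of other members is restricted to hair, nail, cornea or cornified skin.

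RNA-Seq of total RNA was compared between MDA PCa 2b and RC77 T/E, 2 established human prostate cancer cell lines that the labels give as untreated, with 1 library each. MDA PCa 2b was grown in Kaighn's F-12 medium with serum, antibiotics, insulin, hydrocortisone, selenite, phosphoethanolamine, cholera toxin and epidermal growth factor. RC77 T/E was grown in Keratinocyte-SFM, a serum-free medium made for keratinocytes, with bovine pituitary extract and epidermal growth factor. Each line was grown in its own medium, so what belongs to the line and what belongs to the medium cannot be told apart. Fewer cells that use a gene and less RNA per cell cannot be told apart in such bulk samples either.

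Values are in TPM, the share of a transcript among all transcripts of a library after division by its length, so levels of different genes can be set side by side. The depth of the libraries is unknown, no replicate check exists for any difference, and no test was possible. In the deposited table many values of 1 TPM or more had lost their decimal mark. The mark was restored from the authors' mean and standard error columns, and for 50 of the 55 keratins a single position was possible. For KRT8, KRT10, KRT80, KRT6B and KRT34 more than 1 position remained, and all possible values are given. The ratio between the lines does not depend on the position when both values are above 0. The ratio of a gene is also given as log2((RC77 T/E TPM + 1)/(MDA PCa 2b TPM + 1)), called the log2 ratio here, which understates differences of low genes. A value listed at 0 can be a failed estimate, since EEF1A1, a translation factor used by every cell, was listed at 0 in MDA PCa 2b cells and at 2393 TPM in RC77 T/E.

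All 6 prostate luminal markers were higher in MDA PCa 2b, with KLK3 (prostate-specific antigen) at 5323 TPM against a value listed at 0 in RC77 T/E. KLK2 and HOXB13 were also listed at 0 in RC77 T/E. Of 6 prostate basal markers 5 were higher in RC77 T/E, such as LAMB3 (a laminin-332 chain) at 0.195 TPM in MDA PCa 2b cells and 1702 TPM in RC77 T/E. TP63, the basal transcription factor, was listed at 0 and at 5.17 or 51.7 TPM. Summed stromal markers stood at 2.82 and 9.23 TPM, summed melanocyte markers at 1.06 and 1.14 TPM, and the leukocyte markers PTPRC and CD3E were at most 0.0126 TPM in either line. CD68, a lysosomal protein in the leukocyte list, was at 0.663 and 37.9 TPM. Of 5 squamous cornification markers with a mean of at least 1 TPM, 4 were higher by 2-fold or more in RC77 T/E. Beside this stood 19.1% of protein-coding genes with such a mean. SPRR1B was listed at 0 and at 119 TPM, and SPRR1A at 0 and at 19.8 or 198 TPM. SPRR2A was listed at 0 and at 2.02, 20.2 or 202 TPM, and TGM1 was at 0.865 and 5.05 TPM. IVL, with a lower mean, was at 0.00363 and 1.36 TPM, and FLG was higher in MDA PCa 2b at 4.07 against 0.529 TPM. The part of these markers in the keratin differences was not tested.

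Most keratin genes were low in both lines, and those that were not stood higher in RC77 T/E more often than in MDA PCa 2b. To call a gene expressed, the study asks for detection in enough samples and a mean over them of at least 1 TPM. Here the level of 1 TPM was applied to each library alone. At 1 TPM or more there were 8 of 55 keratins in MDA PCa 2b, where 57.9% of all protein-coding genes reached it. In RC77 T/E there were 16 of 55, beside 61.7% of all protein-coding genes. These were 17 different genes, 7 of them at 1 TPM or more in both lines. The MDA PCa 2b set held KRT8, KRT18, KRT19, KRT14, KRT15, KRT10, KRT80 and KRT2, and KRT2 was the member absent from the RC77 T/E set. In all, 27 keratins were listed at 0 in MDA PCa 2b cells and 14 in RC77 T/E, against 17.5% and 17.6% of protein-coding genes, and 9 were listed at 0 in both.

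Of the 16 keratins with a mean of at least 1 TPM over the lines, 11 were higher by 2-fold or more in RC77 T/E on the log2(TPM + 1) scale, beside 19.1% of the 11012 protein-coding genes with such a mean. Higher by 2-fold or more in MDA PCa 2b were 0 of the 16, beside 19.7% of those genes. The other 5, KRT8, KRT18, KRT19, KRT10 and KRT80, differed by less than 2-fold on that scale. The median log2 ratio was 2.60 over the 16 keratins and -0.15 over the 11012 genes, with open marks at the lowest position. Over the 13 of the 16 keratins that were above 0 in both lines it was 1.96. The 2.60 would be higher at the highest position, where KRT6B and KRT34 have log2 ratios of 8.80 and 9.24. Neither gene is among the 13. By family, 6 of 9 type I members and 5 of 7 type II members were higher by 2-fold or more in RC77 T/E, with median log2 ratios of 2.81 and 2.44.

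**Figure D1:**
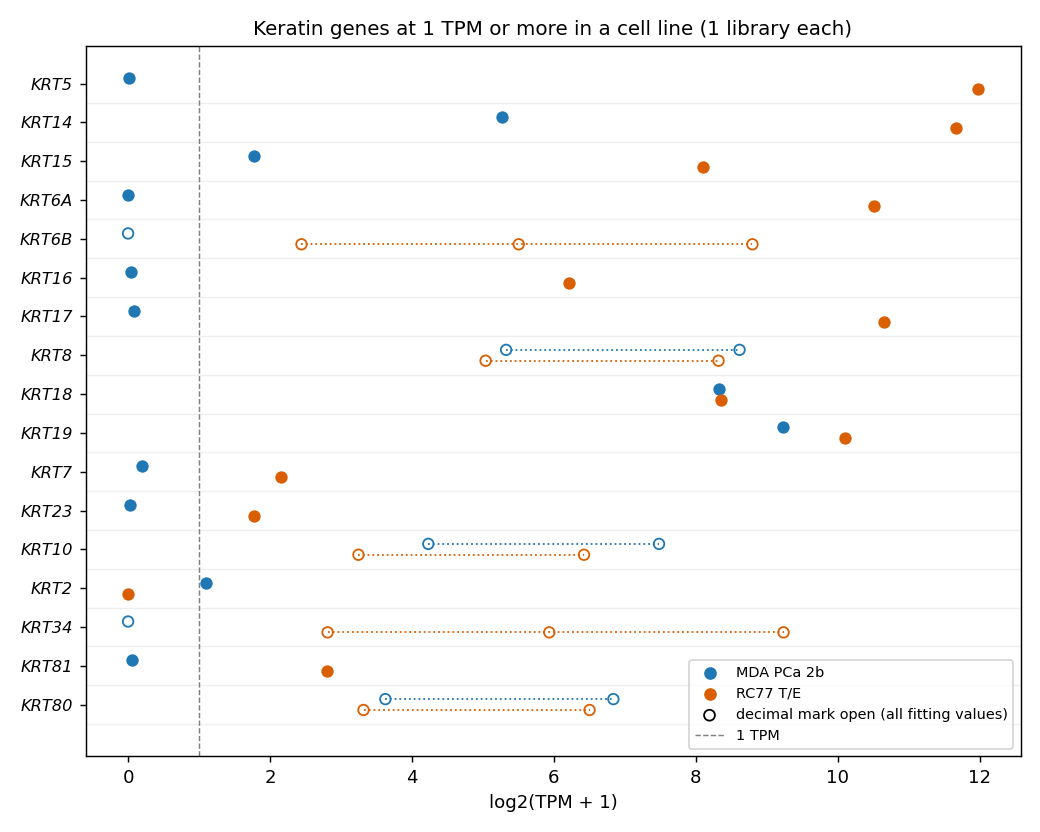
Level of the 17 keratin genes at 1 TPM or more in at least 1 line, as log2(TPM + 1) on the horizontal axis, with blue points for MDA PCa 2b, orange points for RC77 T/E (1 library each) and open points joined by dotted lines for all values possible where the decimal mark is open. KRT5 stands at 0.00435 and 4027 TPM and KRT17 at 0.0571 and 1608 TPM, while the points of KRT18 nearly coincide at 320.5 and 324.8 TPM.

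KRT5 and KRT14, keratins of the basal layer, had the highest keratin levels in RC77 T/E. KRT5 (chr12:52514575-52520530, minus strand), the type II chain of basal keratinocytes and prostate basal cells, was at 0.00435 TPM in MDA PCa 2b cells and 4027 TPM in RC77 T/E, a log2 ratio of 11.97. It ranked 4 among the protein-coding genes of RC77 T/E, whichever open decimal marks were taken. Its type I partner KRT14 (chr17:41582279-41586895, minus strand) was at 37.4 and 3255 TPM, which is 86.95 times as high in RC77 T/E, where it ranked 7. KRT15 (chr17:41513745-41522529, minus strand), a type I chain known from basal cells and from the hair follicle bulge, was at 2.42 and 272 TPM, or 112.5 times as high in RC77 T/E. All 3 basal-layer members thus stood apart in the same direction, and their sum was 39.9 TPM in MDA PCa 2b cells and 7554 TPM in RC77 T/E, a 190-fold difference.

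The 2 chains of the basal pair were not matched in MDA PCa 2b. There KRT14 stood at 37.4 TPM while KRT5, the chain it is known to pair with, was near 0. In RC77 T/E the pair was close to balance, with KRT5 at 1.24 times the TPM of KRT14 and at 14.8 times that of KRT15. The KRT14 value has a limit, sequence shared with other genes, that also holds for KRT16 and KRT17 described next. Of the 31-base stretches of its GENCODE 29 protein-coding transcript, 46.1% also occur in transcripts of other genes, most often in the pseudogene KRT16P6 with 23.0%, and 17.95% occur in KRT16. KRT16P6 had no row in the deposited table, so its level is unknown. The share that occurs in other genes was 6.01% for KRT5 and 1.68% for KRT15. It was 38.1% for KRT16 and 30.15% for KRT17, and 14.41% of the KRT16 stretches occur in KRT14. How reads shared by such copies were divided was set by the authors' quantification, and its part in the values was not tested.

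The keratins of wounded and follicular epithelium were near 0 in MDA PCa 2b. KRT6A (chr12:52487176-52493257, minus strand), a type II chain induced in injured epidermis, was listed at 0 in MDA PCa 2b cells and at 1454 TPM in RC77 T/E. KRT17 (chr17:41619442-41624842, minus strand), a type I chain of hair follicles and activated keratinocytes, was at 0.0571 and 1608 TPM, with a log2 ratio of 10.57. KRT16 (chr17:41609778-41615899, minus strand), the usual partner of KRT6A, was at 0.0335 and 73.1 TPM, with a log2 ratio of 6.16. KRT17 and KRT6A ranked 32 and 35 among the protein-coding genes of RC77 T/E. KRT6B, a close copy of KRT6A, was listed at 0 in MDA PCa 2b cells and at 4.44, 44.4 or 443.9 TPM in RC77 T/E. The remaining 2 members of the list stayed under 1 TPM: KRT6C was listed at 0 and at 0.914 TPM, and KRT75, a follicle keratin, was at 0.00453 and 0.367 TPM. The list summed to 0.0951 TPM in MDA PCa 2b cells and to between 3141 and 3580 TPM in RC77 T/E.

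The 3 KRT6 genes are near-identical copies, so the division of reads among them carries weight in these values. Over 1692 coding bases KRT6A and KRT6B differ at 42 (97.5% identity), KRT6A and KRT6C at 35 (97.9%) and KRT6B and KRT6C at 25 (98.5%). Of the 31-base stretches of KRT6A, 45.75% occur in KRT6C and 40.5% in KRT6B. The 60-base window of the coding sequence within an exon where the 3 copies differ most is printed because reads over it can tell them apart. It runs from coding base 663 to coding base 722 in the GENCODE 29 transcripts of GRCh38, all on the minus strand, at chr12:52491555-52491614 in KRT6A, chr12:52450439-52450498 in KRT6B and chr12:52472099-52472158 in KRT6C. Sequences are written 5′ to 3′ on the strand of the gene, and capitals mark the 9 positions that are not the same in all 3.
KRT6A: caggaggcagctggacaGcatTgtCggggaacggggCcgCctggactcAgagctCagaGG
KRT6B: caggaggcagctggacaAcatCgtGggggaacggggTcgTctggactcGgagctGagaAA
KRT6C: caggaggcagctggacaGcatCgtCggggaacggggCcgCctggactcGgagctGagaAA
All 3 were listed at 0 in MDA PCa 2b, and KRT6A was the highest of them in RC77 T/E at every position of the open mark of KRT6B.

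KRT8, KRT18 and KRT19, keratins of simple epithelia, had like levels in the lines. KRT18 (chr12:52948871-52952906, plus strand), the type I chain of luminal and other simple epithelial cells, was at 320.5 TPM in MDA PCa 2b cells and 324.8 TPM in RC77 T/E, a log2 ratio of 0.019. Its partner KRT8 (chr12:52897187-52949954, minus strand) was at 39.1 or 391 TPM in MDA PCa 2b cells and at 31.8 or 318 TPM in RC77 T/E, and at either position it was higher in MDA PCa 2b, by 1.23 times. KRT19 (chr17:41523617-41528308, minus strand), the smallest keratin, known from ductal and progenitor cells, was at 598 and 1099 TPM, or 1.84 times as high in RC77 T/E. The luminal markers differed between the lines in the same libraries, TMPRSS2 for example at 483 and 0.108 TPM, while KRT8, KRT18 and KRT19 stayed within 2-fold. Centred on the median of all genes, which lay at -0.15, the log2 ratio of KRT18 was 0.17 and that of KRT8 was -0.14, with the same signs, and that of KRT19 was 1.03, past the 2-fold line, which makes 12 keratins higher by 2-fold or more in RC77 T/E.

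The other simple-epithelial members were low. KRT7, the type II chain of ductal and glandular epithelia that can pair with KRT19, was at 0.144 and 3.45 TPM. KRT23, a type I keratin, was at 0.0143 and 2.42 TPM, and KRT20, the chain of intestinal and urothelial surface cells, was at 0.0227 TPM and listed at 0. KRT7 and KRT23 were thus at 1 TPM or more only in RC77 T/E, far below KRT19 in both lines. KRT8 and KRT18 lie next to each other and partly overlap on opposite strands, and the libraries were directional, but whether the quantification used strand is not given in the sources used here. Of the 31-base stretches of KRT18, 46.1% occur in other genes, above all in its many processed pseudogenes, against 25.4% for KRT8 and 10.6% for KRT19. Of the pseudogenes named after KRT18, only KRT18P55 had a row in the deposited table. The simple-epithelial list as a whole summed to between 958 and 1310 TPM in MDA PCa 2b cells and to between 1461 and 1748 TPM in RC77 T/E.

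KRT10 and KRT2, keratins of the upper epidermis, stood higher in MDA PCa 2b. KRT10, the type I chain of suprabasal keratinocytes, was at 17.8 or 178 TPM in MDA PCa 2b cells and at 8.49 or 84.9 TPM in RC77 T/E, which is 2.09 times as high in MDA PCa 2b. On the log2(TPM + 1) scale this was -0.98 at the lower position and -1.06 at the higher, on either side of the 2-fold line. KRT2, a type II chain of the uppermost living layers, stood at 1.15 TPM in MDA PCa 2b and was listed at 0 in RC77 T/E. KRT1, the type II partner of KRT10 in epidermis, was at 0.00466 and 0.0189 TPM, and KRT9 of palm and sole skin was at 0.0139 and 0.613 TPM. KRT10 was thus at 8.49 TPM or more in both lines where KRT1 was at 0.0189 TPM or less.

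Hair and nail keratins were near 0, with 2 exceptions in RC77 T/E. KRT34, a type I hair keratin, was listed at 0 in MDA PCa 2b cells and at 6.02, 60.2 or 602 TPM in RC77 T/E. KRT81, a type II hair keratin, was at 0.0346 and 5.98 TPM. Its neighbour and close copy KRT86 went the other way, at 0.960 and 0.250 TPM, 3.84 times as high in MDA PCa 2b. The 2 genes overlap on opposite strands, and 42.5% of the 31-base stretches of KRT81 occur in KRT86, so their values are uncertain with respect to each other. The other 14 hair and nail members stayed at or below 0.220 TPM in both lines. KRT80, a type II keratin found in many epithelia and assigned to no programme here, was at 11.3 or 113 TPM in MDA PCa 2b cells and 8.97 or 89.7 TPM in RC77 T/E, 1.26 times as high in MDA PCa 2b.

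Among the 38 keratins under 1 TPM in both lines, 10 were higher in MDA PCa 2b, 19 were higher in RC77 T/E and 9 were listed at 0 in both. The like shares over all protein-coding genes under 1 TPM were not computed, so these counts give no result about keratins. None of the 5 mucosal keratins reached 1 TPM, with KRT4 highest in MDA PCa 2b at 0.464 TPM and its partner KRT13 highest in RC77 T/E at 0.763 TPM. The cornea pair KRT3 and KRT12 was listed at 0 in MDA PCa 2b cells and at 0.0552 and 0.00832 TPM in RC77 T/E. The 8 inner root sheath keratins reached at most 0.473 TPM (KRT72) in MDA PCa 2b cells and 0.0975 TPM (KRT74) in RC77 T/E. Whether any of these low values differs from 0 was not tested. Of the sequences outside the set, none of 7 keratin pseudogenes in the table reached 1 TPM. The copies KRT16P1, KRT16P2 and KRT16P3 were listed at 0 in MDA PCa 2b cells and at 0.613, 0.966 and 0.535 TPM in RC77 T/E, where KRT16 itself was at 73.1 TPM. Of 93 keratin-associated protein genes, which encode the matrix of hair, 0 in MDA PCa 2b cells and 1 in RC77 T/E reached 1 TPM.

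The total keratin level differed between the lines far more than the simple-epithelial level. The 55 genes summed to between 1030 and 1645 TPM in MDA PCa 2b cells and to between 12188 and 13667 TPM in RC77 T/E, where the bounds take all open decimal marks at their lowest or highest position. This is 11.8 times as much in RC77 T/E at the lowest positions and 8.31 times at the highest. At the lowest positions KRT5 made up 33.0% of the RC77 T/E sum, KRT14 26.7%, KRT17 13.2%, KRT6A 11.9% and KRT19 9.01%. The MDA PCa 2b sum was held by simple-epithelial members, with KRT19 at 58.0%, KRT18 at 31.1% and KRT8 at 3.80%, or 36.4%, 19.5% and 23.8% at the highest positions. The leading gene was therefore KRT5 in RC77 T/E at both positions. In MDA PCa 2b it was KRT19 at both.

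**Figure D2:**
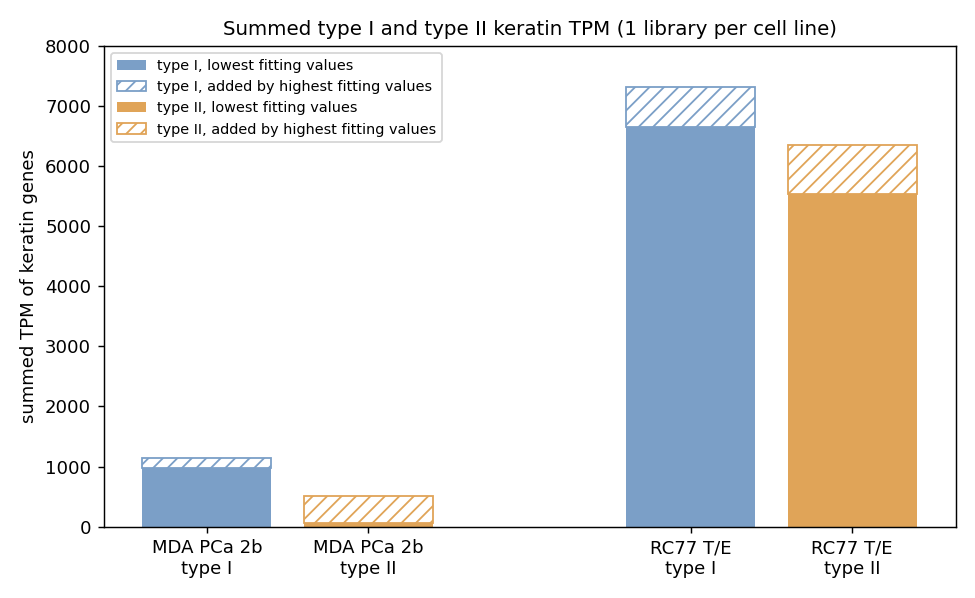
Summed TPM of the 29 type I (blue) and 26 type II (orange) keratin genes in each line, 1 library per line, where solid bars take open decimal marks at the lowest position and hatched parts show what the highest position adds. Type I and type II sums are near each other in RC77 T/E, at 6650 to 7322 and 5539 to 6345 TPM, and type I is the larger in MDA PCa 2b, at 976 to 1136 against 54.1 to 508 TPM.

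Since filaments need both types, the balance between the families was computed. In RC77 T/E the type I sum was between 1.05 and 1.32 times the type II sum over all positions of the open marks. In MDA PCa 2b it was between 1.92 and 21.0 times, and the gene with the widest open values in it was KRT8, at 39.1 or 391 TPM. The type I sum was thus the larger in both lines at any position, and by more in MDA PCa 2b. Of 14 textbook pairs, both chains reached 1 TPM for 2 pairs in MDA PCa 2b and for 6 pairs in RC77 T/E. Some chains, such as KRT5 and KRT8, stand in more than 1 pair. The like share over pairs of other genes was not computed, so these counts give no result about keratins.

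The pairs of MDA PCa 2b were KRT8 with KRT18 and KRT2 with KRT10. KRT18 was at 0.819 or 8.19 times the TPM of KRT8 there, and KRT10 was at 15.4 or 154 times the TPM of KRT2. The pairs of RC77 T/E were KRT8 with KRT18, KRT7 with KRT19, KRT5 with KRT14, KRT5 with KRT15, KRT6A with KRT16, and KRT6B with KRT17. Most of these were far from equal. KRT19 was 318 times KRT7, KRT6A was 19.9 times KRT16, and KRT17 was between 3.62 and 362 times KRT6B. KRT18 was 1.02 or 10.2 times KRT8 in RC77 T/E. Apart from KRT8 with KRT18 at the higher position, KRT5 with KRT14 was the pair nearest to equal levels in that line. The chains KRT6A and KRT17, set in different textbook pairs, were at 1454 and 1608 TPM.

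All keratin genes of the set lie in 2 clusters. The chromosome 12 cluster (chr12:52168996-52952906) holds 27 genes, the 26 type II members and KRT18, and the chromosome 17 cluster (chr17:40654665-41624842) holds the other 28 type I members. The counts that follow split by cluster the same keratins as counted above. At 1 TPM or more were 4 genes of each cluster in MDA PCa 2b cells and 8 of each in RC77 T/E. Of all protein-coding genes, 57.9% and 61.7% reached it. With a mean of at least 1 TPM, 5 of 8 chromosome 12 genes and 6 of 8 chromosome 17 genes were higher by 2-fold or more in RC77 T/E. Beside this stood 19.1% of protein-coding genes with such a mean. The median log2 ratios of the clusters were 2.20 and 4.49.

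Of the 11 keratins higher by 2-fold or more in RC77 T/E, 4 (KRT7, KRT81, KRT23 and KRT34) lay apart from the others, which sat among the neighbours given next. Whether their positions are more than chance was not tested. On chromosome 12 the run KRT75, KRT6B, KRT6C, KRT6A and KRT5 was higher in RC77 T/E at every gene, though KRT75 and KRT6C were under 1 TPM in both lines. The next gene, KRT71, begins 23379 bp beyond KRT5 and was at 0.00385 TPM and listed at 0, and no gene from KRT71 to KRT78 was above 1.15 TPM. On chromosome 17 the run KRT13, KRT15, KRT19, KRT9, KRT14, KRT16 and KRT17 was higher in RC77 T/E at every gene, though KRT13 and KRT9 were under 1 TPM in both lines. Neighbours in this run still differed in size: KRT19, 1088 bp beyond KRT15, had a ratio of 1.84 between RC77 T/E and MDA PCa 2b where KRT15 had a ratio of 112.5. The 5 genes KRT24 to KRT28 at the other end were listed at 0 in both lines.

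**Figure D3:**
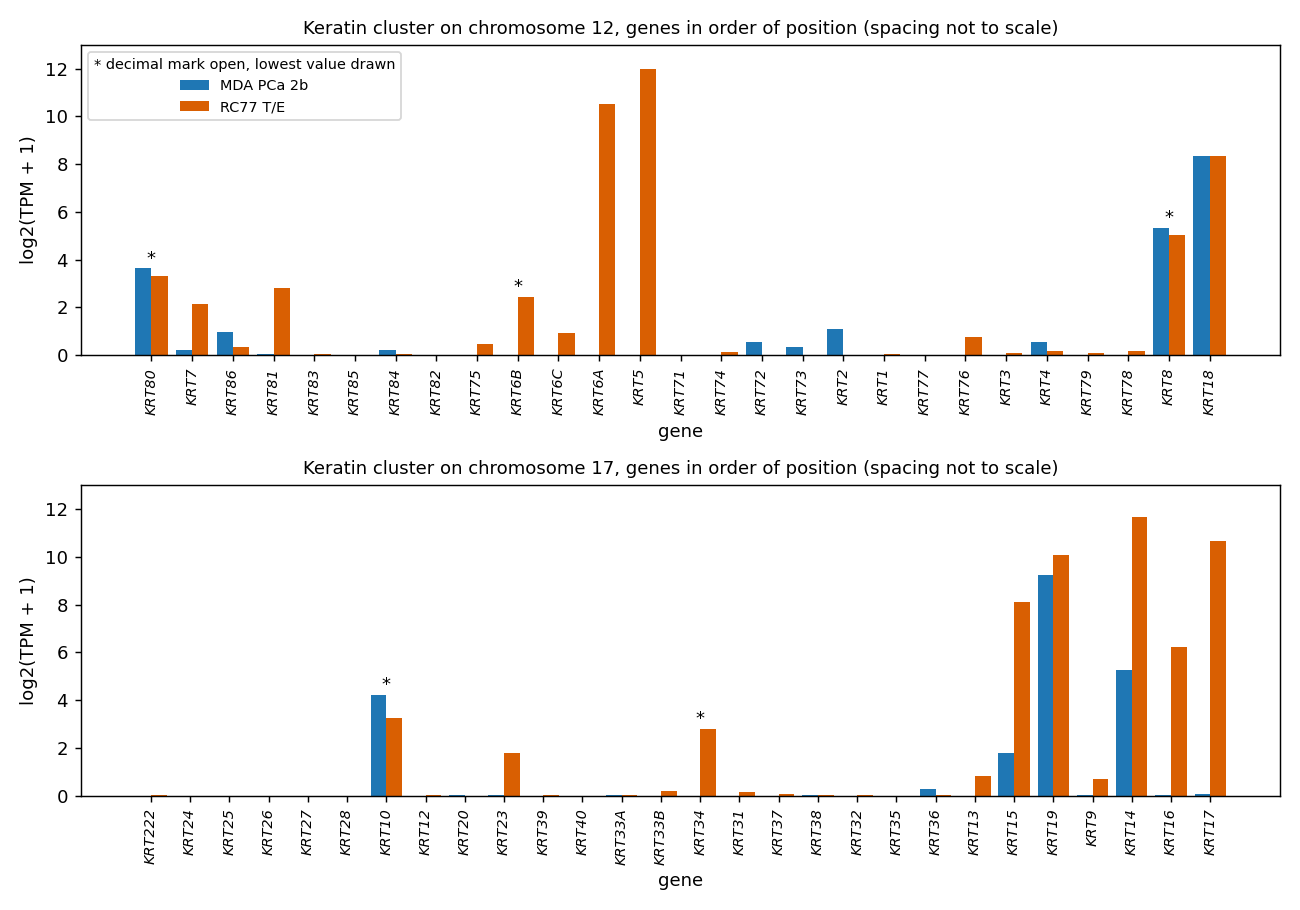
Level of each keratin gene in order along the chromosome 12 (top) and chromosome 17 (bottom) clusters, as log2(TPM + 1), with blue bars for MDA PCa 2b and orange bars for RC77 T/E, 1 library each; an asterisk marks a gene drawn at its lowest possible value. Tall orange bars without a blue partner of like height sit at KRT6A and KRT5 on chromosome 12 and at KRT15, KRT14, KRT16 and KRT17 on chromosome 17, and KRT8, KRT18 and KRT19 are tall in both colours.

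Promoters were searched for a letter motif, a feature that the choice by name did not use. RefSeq promoter sequences (GRCh38.p14) covered 34 of the 55 genes, and the 100 bases before the transcription start were searched for TATAAA on both strands, the core of the TATA box at which the general transcription machinery can bind. It was present in 17 of 34 keratin promoters (50%), and in 4.99% of all 35116 promoters of the same length. The keratin share takes 1 promoter per gene and the other share takes every promoter listed, so the sets are not fully alike. Among the 17 keratins at 1 TPM or more, promoters of KRT2, KRT5, KRT8, KRT10 and KRT34 were in the table, and those of KRT10 and KRT34 held the letters. The windows of KRT5, with the highest level of all members, and of KRT10 and KRT34 are printed, each on the minus strand and ending next to the RefSeq start, with the motif in capitals. The RefSeq start of KRT5 lies inside the gene as the table bounds it, so its window does too. They are at chr12:52520395-52520494, chr17:40822615-40822714 and chr17:41382307-41382406.
KRT5: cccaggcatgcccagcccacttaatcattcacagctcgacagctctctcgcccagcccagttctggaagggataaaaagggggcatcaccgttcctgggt
KRT10: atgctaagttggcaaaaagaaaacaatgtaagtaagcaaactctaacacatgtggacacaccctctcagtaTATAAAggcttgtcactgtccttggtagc
KRT34: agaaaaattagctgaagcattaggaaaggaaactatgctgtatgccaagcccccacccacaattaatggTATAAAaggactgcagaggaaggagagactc
The motif begins 29 bases before the start in KRT10 and 31 bases before it in KRT34. In KRT5 these exact letters are not in the window. A match is a description of letters and not of a bound site. The sequence is that of the reference genome, and the DNA of the lines was not examined.

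The proteins that anchor keratin filaments were described beside the keratins. Of 15 such genes, all with a mean of at least 1 TPM, 9 were higher by 2-fold or more in RC77 T/E and 0 were so in MDA PCa 2b, beside 19.1% and 19.7% of protein-coding genes, with a median log2 ratio of 1.32. The 4 largest ratios were those of COL17A1, ITGB4, DST and ITGA6, whose products belong to hemidesmosomes, the junctions that tie KRT5 and KRT14 filaments to the basement membrane, and ITGA6 and ITGB4 also stand in the basal marker list. COL17A1, the transmembrane collagen of hemidesmosomes, was at 0.0424 TPM in MDA PCa 2b cells and 524 TPM in RC77 T/E. ITGB4, the integrin chain of the same junction, was at 4.51 and 463 TPM, or 102.6 times as high in RC77 T/E. DST, the dystonin gene whose epithelial product links keratins to hemidesmosomes, was at 1.90 and 148 TPM, 78.2 times as high. ITGA6, the partner chain of ITGB4, was at 1.61 or 16.1 and 42.2 or 422 TPM, 26.2 times as high.

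Plakins and desmosome genes were described next. The plakins PPL, PLEC and DSP, which bind keratins to desmosomes or, for PLEC, to hemidesmosomes, were 9.32, 8.04 and 6.02 times as high in RC77 T/E. PKP2, a plakophilin, was 2.67 times as high, and JUP (plakoglobin) was at 73.4 and 185 TPM, 2.52 times as high. The other plakophilins stayed within 2-fold, with PKP1 at 53.6 and 58.4 TPM and PKP3 1.12 times as high in MDA PCa 2b. FAM83H, which organises keratin filaments in several epithelial cells, was at 61.8 and 58.7 TPM. EVPL, EPPK1 and TCHP also lay under 2-fold.

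Among 15 other intermediate filament genes, 8 had a mean of at least 1 TPM, of which 4 were higher by 2-fold or more in RC77 T/E and 1 was so in MDA PCa 2b, beside the same 19.1% and 19.7%, so the latter share was near that of all genes. VIM, the vimentin gene of mesenchymal and many cultured cells, was at 0.300 TPM in MDA PCa 2b cells and 400.1 TPM in RC77 T/E. The others higher in RC77 T/E were LMNA (lamin A/C), 6.06 times as high, the neuronal gene INA at 0.0440 and 7.35 TPM, and the progenitor gene NES at 0.0649 and 2.11 TPM. NEFH, a neurofilament chain, was at 8.20 and 0.339 TPM and thus higher in MDA PCa 2b. In RC77 T/E, VIM was high in the same library as KRT5 and KRT14, and whether the same cells held both was not tested. Summed stromal markers stayed at 9.23 TPM there, of which COL1A1 gave 8.24 TPM.

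**Figure D4:**
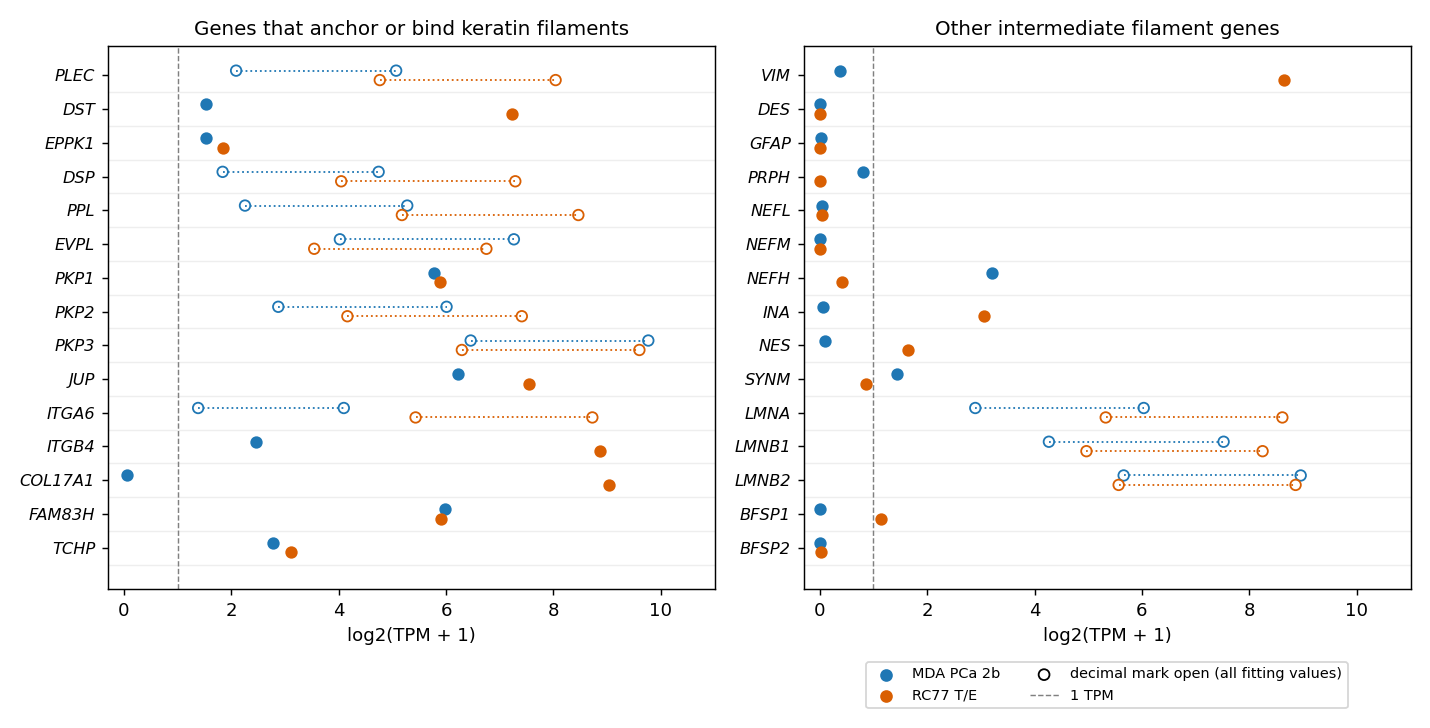
Levels of 15 genes that anchor or bind keratin filaments (left) and of 15 other intermediate filament genes (right), as log2(TPM + 1), with blue points for MDA PCa 2b, orange points for RC77 T/E (1 library each) and open points for all values possible where the decimal mark is open. COL17A1, ITGB4 and DST on the left and VIM on the right show the wide gaps, and PKP1 and FAM83H show nearly equal levels.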

How the data were processed

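Total RNA of the 2 cell lines was sequenced by the authors as paired-end directional libraries, 1 per line. The submitters' processing notes name CASAVA, FastQC 0.11.9, Trimmomatic 0.38, Salmon 1.2.0 and GRCh38, and the annotation used is not given in the sources used here. The authors deposited 1 table of TPM for each line with their mean and standard error; the total depth per library is unknown, so no count-based interval was possible.

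Plain TPM had been assumed when the analysis was planned, but where a value reached 1 TPM and had 3 decimals or more, it lacked their decimal mark. Every position with 1 to 3 digits before the mark was tried, and those for which both columns fit the deposited mean and standard error were kept. Of 22791 rows, 16284 had 1 position and 6507 several. On 5000 simulated rows that lost their marks by the same rule, the step left a single position in 3861, correct in 3861. The true position was always among those tried there, so a single position had to be correct. The simulation cannot show whether the deposited values follow that rule. Counts, sums and medians use the lowest position unless stated. Loci of 1 symbol were summed.

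With 1 library per line no test was run. Genes were called by size: 1 TPM or more, and at least 2-fold apart in log2(TPM + 1), with a pseudocount of 1 TPM, among genes averaging 1 TPM or more. Named keratins are all members at 1 TPM or more in a line; others are named beside a close copy, as a partner of a pair or as the highest of a list. Programmes, pairs and lists follow textbook knowledge. LOR of the cornification list was not analysed here. Some marker genes are not reported here. The members and lists were chosen with earlier results of these data known. Shared 31-base stretches and the KRT6 window were computed from GENCODE 29 transcripts, and promoters came from RefSeq. Alternatives were other thresholds, pseudocounts, scalings and mark positions. Python 3.11.15, numpy 2.4.6, pandas 2.3.3 and matplotlib 3.10.9 were used.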

Additional observations from a re-analysis of the deposited data

How the results depend on the processing

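With 1 library per line every value is a single measurement, its error and depth are unknown, and genes listed at 0 allow no fold. The labels give no pairing of the lines, and with each sequenced only once no test of a difference was possible. The count of keratins higher by 2-fold or more in RC77 T/E, 11, stayed within 11 and 12 under the alternatives with restored marks. The count higher in MDA PCa 2b moved from 0 to 1 with a pseudocount of 0.1 TPM (KRT10), to 1 with the highest mark positions (KRT10) and to 1 with all keratins above 0 (KRT2). The type I median of 2.81 moved to 5.93 with the pseudocount of 0.1 TPM, to 6.16 at the highest positions and to 0.11 over all keratins above 0, since low genes then enter. The type II median of 2.44 moved to 5.50 with that pseudocount and to 0.056 over all keratins above 0. The MDA PCa 2b sum of 1030 TPM became 1645 TPM at the highest positions. Counts at 1 TPM or more became 9 and 20 at 0.5 TPM and 6 and 13 at 5 TPM, and 14 in RC77 T/E at 5 TPM with the highest positions, an alternative chosen after seeing the data. Reading the commas as mere digit grouping gave 4 keratins higher in MDA PCa 2b (KRT14, KRT15, KRT18, KRT2) and a type II median of 11.24, and turned the log2 ratios of KRT18 to -9.94, KRT15 to -9.79, KRT14 to -6.85, KRT10 to 2.26 and KRT80 to 2.98, by construction, since a value then grows with its number of decimals. Of the 17 named keratins, the pseudocount of 0.1 TPM moved the log2 ratio of 6, centring and upper-quartile scaling of 3 each and the highest positions of 2, none with a change of sign. Centring and upper-quartile scaling took KRT19 past the 2-fold line, which gives the count of 12.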
